A study of Mus musculus with 2 samples.

Results

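The genes described here are 41 genes known for Bergmann glia, the radial astroglia of the cerebellar cortex, and for astrocytes in general. They were taken by symbol, by a rule that uses no measured value, although the list was drawn up with earlier results of these data known. All 41 matched 1 identifier each among the 43346 Ensembl genes of the deposited tables. The tables come from 2 pools of 30 Purkinje cells each, the output neurons of the cerebellar cortex, cut from tissue by laser capture. Both pools came from adult male tissue of strain B6CASTF1/J, a hybrid of castaneus and C57Bl mice, at an age of 14 months, and the labels name no treatment. They are labelled biological replicates 1 and 2, called pool 1 and pool 2 here, yet carry the same donor identifier, so the standard deviation (SD, n = 2) and every ratio between pools measure only the spread between these captures, which may be technical. No other group exists, so the values below describe which astroglial transcripts the captured material carried, at what level, and how far each differed between the pools. How alleles of the hybrid affect counting against the reference genome was not tested.

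Bergmann glia have their cell bodies beside those of Purkinje cells, and their fibres and fine lamellae wrap Purkinje dendrites and synapses. Like other astrocytes they take up glutamate and potassium, are coupled by gap junctions, and secrete lipoproteins, protease inhibitors and matrix proteins. Several of the 41 genes, such as Cst3, Clu and Scd2, are also made by neurons. In bulk RNA, fewer cells of a type and less RNA per cell cannot be told apart.

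The pools held 31503819 and 28709397 expected counts (reads assigned by the quantifier, not always whole), spike-in RNA included. Of these, 31437230 and 28591242 were assigned to Ensembl genes. TPM is used below for the level of a gene, corrected for transcript length and library size. The defining markers of the labelled cell type were present, since all 15 genes of a Purkinje cell list reached 1 TPM in each pool, with sums of 95599 and 94916 TPM. The added spike-in RNA took 0.211% of the counts of pool 1 and 0.411% of those of pool 2.

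Promoters of 5 members are shown first because the results below turn on these genes. Gja1, Gpr37l1 and Gdf10 were abundant with similar ratios between pools, Kcnj10 had the largest ratio, and Hopx had the lowest ratio among abundant members. Each run is the 250 bases before the RefSeq start on build mm10 (GRCm38), 5′ to 3′ on the gene's strand, with CpG dinucleotides in capitals. The positions are chr10:56377050-56377299 for Gja1 (plus strand), chr1:135167682-135167931 for Gpr37l1 (minus), chr14:33923337-33923586 for Gdf10 (plus), chr1:172340960-172341209 for Kcnj10 (plus) and chr5:77095268-77095517 for Hopx (minus). The windows of Gja1, Gpr37l1, Gdf10 and Kcnj10 lie upstream of the annotated gene, while that of Hopx lies inside its gene span, since longer Hopx transcripts start farther upstream. The RefSeq start of Gja1 is 30 bases upstream of its GENCODE start.
Gja1: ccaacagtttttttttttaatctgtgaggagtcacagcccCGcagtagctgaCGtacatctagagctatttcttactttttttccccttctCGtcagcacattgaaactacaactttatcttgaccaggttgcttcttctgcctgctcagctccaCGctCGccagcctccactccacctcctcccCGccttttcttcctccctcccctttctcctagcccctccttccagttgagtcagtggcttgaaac
Gpr37l1: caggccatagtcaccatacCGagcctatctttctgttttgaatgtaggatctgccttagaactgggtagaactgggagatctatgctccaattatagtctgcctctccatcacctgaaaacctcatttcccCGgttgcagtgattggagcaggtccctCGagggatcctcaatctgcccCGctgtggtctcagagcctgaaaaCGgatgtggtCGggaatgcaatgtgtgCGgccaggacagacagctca
Gdf10: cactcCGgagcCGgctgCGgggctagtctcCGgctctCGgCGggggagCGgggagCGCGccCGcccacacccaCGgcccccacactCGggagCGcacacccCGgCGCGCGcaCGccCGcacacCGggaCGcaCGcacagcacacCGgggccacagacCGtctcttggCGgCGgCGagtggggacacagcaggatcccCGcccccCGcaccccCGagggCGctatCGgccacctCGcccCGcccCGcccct
Kcnj10: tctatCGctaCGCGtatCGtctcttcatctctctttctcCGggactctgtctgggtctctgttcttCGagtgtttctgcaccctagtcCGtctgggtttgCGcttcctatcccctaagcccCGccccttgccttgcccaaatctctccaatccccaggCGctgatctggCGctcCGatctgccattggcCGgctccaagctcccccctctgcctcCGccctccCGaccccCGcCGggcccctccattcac
Hopx: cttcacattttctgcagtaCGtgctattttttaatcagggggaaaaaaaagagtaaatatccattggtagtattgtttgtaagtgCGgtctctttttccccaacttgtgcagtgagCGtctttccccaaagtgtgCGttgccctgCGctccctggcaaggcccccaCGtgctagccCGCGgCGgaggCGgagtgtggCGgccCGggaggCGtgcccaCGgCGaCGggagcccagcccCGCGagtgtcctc

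The Gja1 and Gpr37l1 windows hold 6 and 7 CpG dinucleotides, while that of Gdf10 holds 35, that of Kcnj10 17 and that of Hopx 18. RefSeq promoters were matched for 33 of the 41 members, with a median of 8 CpG per window against 6 over all 32851 promoters of the table. For 20 of the 33 the RefSeq start lay within 100 bases of the start of the transcript with the largest share. For Tnc, Gfap and Dio2 the gene start was used instead. The CpG and motif values thus include windows away from that start, by 5901 bases for Bcan. Members ran from 0 to 44, 11 of the 33 were at or above the upper quartile of all promoters (16) and 6 were at or below the lower quartile (2). Across 32 of these members with at least 100 counts, the CpG count had a Spearman's rho of -0.12 with the ratio between pools and -0.17 with mean TPM, given as a description across genes that share the same libraries. A set of 5 motifs of 6 letters was searched on both strands. The RBPJ core TGGGAA was in 12 of 33 member windows (36.4%) against 21.6% of all promoters, the SOX core ACAAAG in 4 (12.1% against 16.5%), the SOX core ACAATG in 1 (3.03% against 10.7%), the NFI core TTGGCA in 2 (6.06% against 12.3%) and the TATA box TATAAA in 3 (9.09% against 12.4%). None of these letters was in the 5 windows shown. Aqp4, Sox9, S1pr1, Cspg5, A2m, Scd2, Clu and Sparcl1 had no entry in the promoter table.

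Most astroglial genes were present at moderate to high level in both pools. Detection was set at 1 TPM, which 38 of 41 members and 16.4% of all Ensembl genes reached in both. Tnc missed it in pool 2, and Gfap and Dio2 missed it in both. The members' median of log2(TPM + 1) was 5.08 ± 0.58 (SD, n = 2), against 2.65 ± 0.20 for all genes detected in both pools. In TPM the median was 24.4 in pool 1 and 44.1 in pool 2. Members above a TPM of 100 numbered 8 in pool 1 and 15 in pool 2, and the share of all genes above it was not counted. The 41 genes together held 0.984% of gene counts in pool 1 (exact 95% interval 0.980 to 0.987, counting error only) and 1.67% in pool 2 (1.67 to 1.68). Levels were concentrated in few genes, and the 5 highest, Cst3, Sparcl1, Gja1, Gpr37l1 and Apoe, held 59.6% of the members' TPM in pool 1 and 60.5% in pool 2.

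The order of the members was nearly the same in the pools. Spearman's rho between the pools' TPM was 0.99 over the 41 genes, which are not independent replicates. Cst3 was the highest in both pools. Sparcl1 and Gja1 changed places after it, as did Apoe and Gpr37l1 below them, so these neighbours were not ordered beyond the spread. The rank was the same in both pools for 12 members, among them S100b, Hopx, Gdf10, Slc4a4, Cldn10, Gjb6 and Aqp4, and Gfap and Dio2 were last in both.

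**Figure D1:**
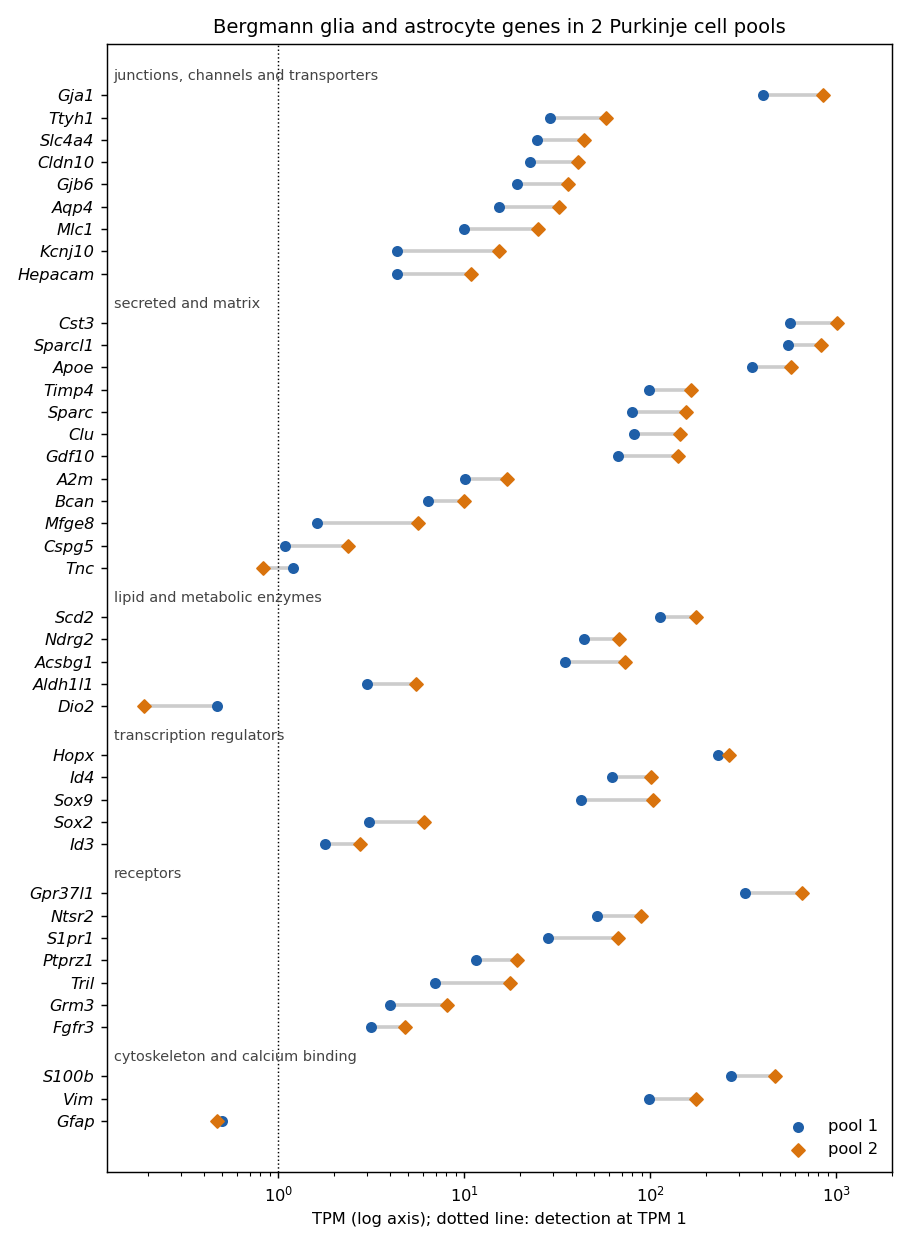
TPM (log axis) of each of the 41 members in pool 1 (circles) and pool 2 (diamonds), grouped by role and sorted by mean TPM, with grey bars joining the pools. In 38 genes the pool 2 value is the higher one, while Tnc, Dio2 and Gfap are higher in pool 1 and lie near or under the dotted line at a TPM of 1.

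Differences between pools were measured as the log2 ratio of counts, pool 2 over pool 1, after TMM scaling, which sets the bulk of genes to be equal between libraries. Higher and lower therefore mean relative to that bulk. With 1 library on each side these ratios have no replicate check, and their 95% intervals are exact binomial intervals that cover counting error only. All 41 members had at least 10 counts over both pools. Of them 37 were higher in pool 2, where 49.7% of the 14478 genes with at least 10 counts were. Their median log2 ratio was 0.57, with quartiles of 0.42 and 0.79, against -0.01 for all genes tested, a difference of 0.58 or 1.49-fold. The counting interval lay above 0 for 36 members and below 0 for 3, and it spanned 0 for Id3 and Gfap. The share of all genes with an interval off 0 was not counted, so these numbers do not set the members apart.

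The shift was modest in size and narrow in spread. At least 2-fold higher in pool 2 were 6 of 41 members (all genes, 16.1%), and at least 2-fold lower was 1 (all genes, 15.3%). On log2(TPM + 1), which damps low genes, 12 of 41 members were at least 2-fold higher (all genes, 4.9%), and under spike-in totals 0 were (all genes, 7.73%). The 4.9% is over 14478 genes, while 7094 Ensembl genes reached 1 TPM in both pools, so it includes many damped genes. No share at matched level was computed for log2(TPM + 1). At 1.5-fold under TMM, 20 of 41 members were higher in pool 2 (all genes, 25.9%). Because low genes scatter widely, the same was counted among genes at a mean TPM of at least 10. There 27 of 28 members were higher in pool 2 (all genes, 43.6%), 13 were at least 1.5-fold higher (all genes, 9.77%), and 3 were at least 2-fold higher (all genes, 3.14%). Because the level is a mean over both pools, a gene can pass through its high pool alone. Mlc1 (9.95 TPM in pool 1) and Tril (6.92) did so, and with Sox9 they are the 3 past 2-fold. These counts are thus not free of the filter, and none was made with the level required in each pool. The middle 50% of those 28 ratios spanned 0.32 on the log2 scale, against 0.62 for all 2456 genes at that level, and the medians were 0.57 and -0.08.

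**Figure D2:**
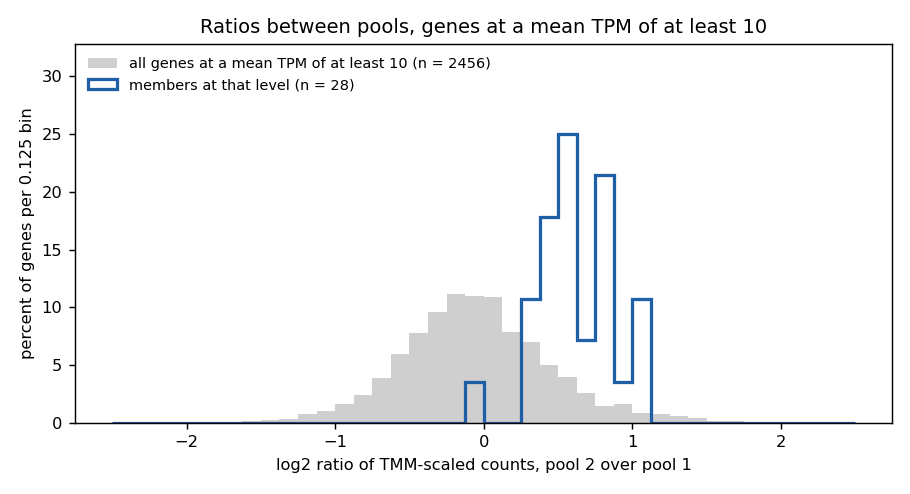
Percent of genes (y axis) in each bin of the log2 ratio of TMM-scaled counts, pool 2 over pool 1 (x axis), for genes at a mean TPM of at least 10, with all 2456 genes in grey and the 28 members in blue. Of the members 27 lie above 0 around a median of 0.57, a direction that holds under TMM and not under spike-in totals, and 6 of all genes fall outside the plotted range. Mlc1 and Tril reach the level only through pool 2.

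The direction depended on the scaling. The median of all genes moved to 0.19 under total counts, 0.13 on TPM and -0.78 under spike-in totals. Under spike-in totals the members' median was -0.20, with 13 of 41 above 0 (all genes, 20.8%), so most directions given here flip under that scaling. The members' distance from all genes was 0.58 under each count scaling by construction, since such a scaling moves every gene alike, and 0.69 on TPM. Above 0 under spike-in totals were 6 of 9 junction, channel and transporter genes, 3 of 12 secreted and matrix genes and 1 of 5 lipid and metabolic genes. The counts for the other groups were 1 of 5 transcription regulators, 2 of 7 receptors and 0 of 3 cytoskeletal and calcium-binding genes. A value that no scaling between libraries touches is the summed TPM of the members as a percent of that of the Purkinje list within each pool. It was 3.84% in pool 1 and 6.81% in pool 2, a 1.77-fold difference, from 3673 and 6460 TPM of the members. Without the 3 highest Purkinje genes in the denominator the percentages were 24.4% and 48.2%, which is 1.97-fold.

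Junction, channel and transporter genes were all detected, and all 9 were higher in pool 2 (median log2 ratio 0.79, range 0.55 to 1.55). Gja1, which encodes the main astrocytic connexin (chromosome 10, 56377330 to 56402513), stood at 401 TPM (pool 1) and 842 TPM (pool 2), from 49000 and 88510 counts. Its mean was 622 ± 311 (SD, n = 2), and its log2 ratio of scaled counts was 0.79 (0.78 to 0.81). Gjb6, the second astrocytic connexin (chromosome 14, 57123303 to 57133611), had 19.2 and 36.1. Gja1 stood 20.9 times above Gjb6 in pool 1 and 23.3 times in pool 2.

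Kcnj10, the inwardly rectifying channel through which astrocytes clear potassium (chromosome 1, 172341210 to 172374085), had the largest ratio of the 41. Its level was 4.33 and 15.3 TPM, from 934 and 2842 counts, and a log2 ratio of 1.55 (1.44 to 1.65). Mlc1 and Hepacam encode membrane partners that form a complex at astrocyte junctions. Mlc1 had a TPM of 9.95 and 24.9, and Hepacam had 4.32 and 10.9. Their log2 ratios were 1.05 (0.94 to 1.15) and 1.05 (0.91 to 1.20), and Mlc1 stood at 2.30 times Hepacam in each pool.

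The water channel gene Aqp4 had a TPM of 15.4 and 32.1, from 3111 and 5586 counts, with a log2 ratio of 0.79 (0.72 to 0.85). Slc4a4, a sodium bicarbonate cotransporter (chromosome 5, 88886818 to 89239653), had 24.4 and 44.1. The claudin gene Cldn10 had 22.5 and 40.6, and Ttyh1, a membrane protein of the tweety family, had 28.8 and 58.0. These 4 had log2 ratios of 0.55 to 0.81, a narrower range than that of the whole group.

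Secreted and matrix genes had the largest summed TPM of the 6 groups, 1811 and 3050, and 11 of 12 were detected in both pools and 11 were higher in pool 2 (median log2 ratio 0.52). Cst3, the protease inhibitor cystatin C (chromosome 2, 148871722 to 148875692), stood at 563 and 1013 TPM, on average 788 ± 318 (SD, n = 2). Sparcl1, a matrix-associated glycoprotein (chromosome 5, 104079111 to 104113733), had 548 and 825. Apoe, the main lipid carrier made by astrocytes (chromosome 7, 19696109 to 19699188), had 353 and 572. All 3 were higher in pool 2, with log2 ratios of 0.57, 0.32 and 0.42.

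Gdf10, a growth factor of the bone morphogenetic protein family that marks Bergmann glia in the cerebellum (chromosome 14, 33923587 to 33937983), had a TPM of 67.1 and 140.0. Its 6558 and 11790 counts gave a log2 ratio of 0.79 (0.74 to 0.83). The metalloprotease inhibitor Timp4 had 98.0 and 165, the matrix glycoprotein Sparc had 79.7 and 155, and the apolipoprotein Clu had 81.2 and 145. Sparcl1 exceeded its relative Sparc 6.87 times in pool 1 and 5.32 times in pool 2. The protease inhibitor A2m had 10.1 and 17.0.

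The last 4 genes of the group were low, at under 10 TPM in each pool. The proteoglycan genes Bcan (TPM 6.35 and 9.98) and Cspg5 (1.08 and 2.37) were higher in pool 2. Mfge8, a secreted bridge protein for phagocytosis, had 1.62 and 5.64 from 126 and 378 counts, with a log2 ratio of 1.52 (1.23 to 1.83). Tenascin C, Tnc (chromosome 4, 63959785 to 64047015), went the other way, with 1.20 and 0.83 TPM from 329 and 197 counts, a log2 ratio of -0.80 (-1.06 to -0.54).

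**Figure D3:**
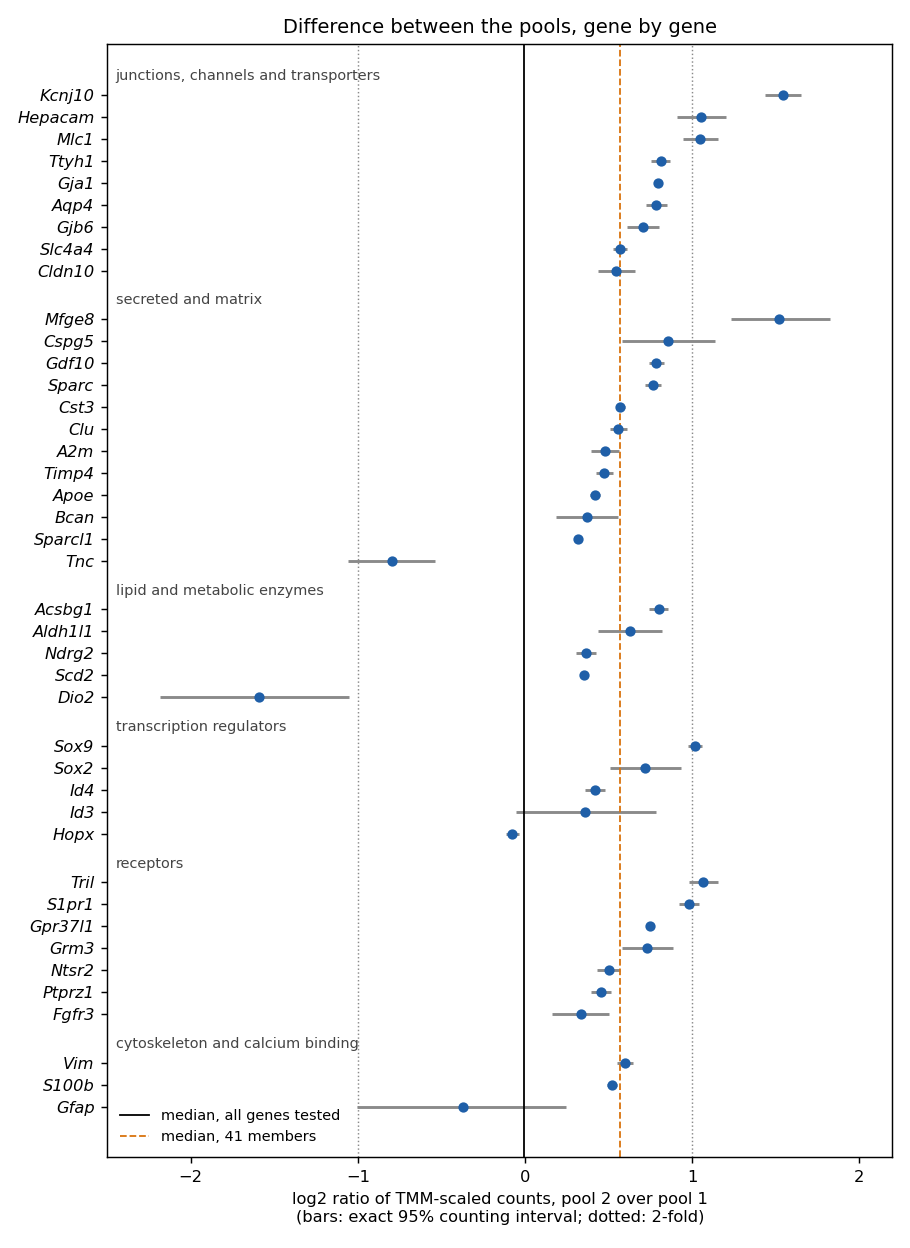
Log2 ratio of TMM-scaled counts, pool 2 over pool 1 (x axis), for each of the 41 members by role, with exact 95% counting intervals as bars. The solid line is the median of all genes tested (-0.01), the dashed line that of the members (0.57), and dotted lines mark 2-fold. Kcnj10 and Mfge8 lie farthest to the right, and Dio2, Tnc, Gfap and Hopx lie to the left of the solid line. Under spike-in totals 13 of 41 would lie above 0.

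Among lipid and metabolic genes, 4 of 5 were detected and higher in pool 2. Scd2, a stearoyl-CoA desaturase (chromosome 19, 44293674 to 44306864), had a TPM of 113 and 175. Acsbg1, an acyl-CoA synthetase (chromosome 9, 54604877 to 54661870), had 34.5 and 72.8 and the highest log2 ratio of the group, 0.80 (0.74 to 0.86). Ndrg2, an astrocyte gene of the hydrolase fold family, had 43.7 and 68.1. Aldh1l1, the folate enzyme widely used to mark astrocytes, was low, at 2.99 and 5.46 from 361 and 582 counts. Dio2, the deiodinase that activates thyroid hormone (chromosome 12, 90724552 to 90738438), was the lowest member, at 0.47 and 0.19. Its 108 and 37 counts gave a log2 ratio of -1.59 (-2.18 to -1.05), the only member at least 2-fold lower in pool 2.

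All 5 transcription regulators were detected, and 4 were higher in pool 2 (median log2 ratio 0.42). Hopx, a homeodomain protein that does not bind DNA (chromosome 5, 77086988 to 77115121), was the highest at 231 and 266 TPM, on average 248 ± 24.5 (SD, n = 2). Its 9543 and 9438 counts gave a log2 ratio of -0.07 (-0.12 to -0.03), below every other member at a mean TPM of at least 10. The sign of this small ratio was not stable, since it was 0.12 under total counts, and the TPM of Hopx was the higher one in pool 2. Sox9, a factor that sets astroglial identity (chromosome 11, 112782224 to 112787760), had 42.2 and 103 and a log2 ratio of 1.02 (0.98 to 1.06).

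Sox2, a factor of neural progenitors and glia, had a TPM of 3.05 and 6.07, so Sox9 stood 13.8 and 17.0 times above it. The inhibitors of helix-loop-helix factors Id4 and Id3 were far apart, Id4 at 62.4 and 101 and Id3 at 1.78 and 2.76. Id4 was 35.1 times Id3 in pool 1 and 36.6 times in pool 2. Id3, with 85 and 114 counts, had an interval of its log2 ratio (-0.05 to 0.79) that included 0.

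The 7 receptor genes were all detected and all higher in pool 2 (median log2 ratio 0.73). Gpr37l1, a receptor of astroglia related to endothelin receptors (chromosome 1, 135160234 to 135167681), stood at 322 and 654 TPM, on average 488 ± 235 (SD, n = 2), and a log2 ratio of 0.75 (0.73 to 0.77). The neurotensin receptor Ntsr2 had 51.9 and 88.8. The sphingosine 1-phosphate receptor S1pr1 had 28.0 and 67.0 with a log2 ratio of 0.98 (0.92 to 1.04), just under 2-fold. Tril, a cofactor of Toll-like receptor signalling, had 6.92 and 17.6 with a log2 ratio of 1.07 (0.98 to 1.16).

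The receptor phosphatase Ptprz1 had a TPM of 11.5 and 19.1, the metabotropic glutamate receptor Grm3 had 3.98 and 8.01, and the growth factor receptor Fgfr3 had 3.15 and 4.81. Fgfr3 had the lowest ratio of the group, 0.33 (0.16 to 0.51). In level the receptors thus ranged widely, from Gpr37l1 as one of the 5 highest members to Fgfr3 among the low ones.

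Among cytoskeletal and calcium-binding genes, the calcium-binding S100b (chromosome 10, 76253853 to 76261159) had a TPM of 271 and 469, and the intermediate filament gene Vim (chromosome 2, 13573927 to 13582826) had 97.8 and 176. Their log2 ratios were 0.52 and 0.60. Gfap, the other glial intermediate filament and the common marker of reactive and fibrous astrocytes (chromosome 11, 102887336 to 102900912), had only 0.50 and 0.47, from 51 and 41 counts. Its log2 ratio of -0.37 had a counting interval that included 0. Vim exceeded Gfap 196 times in pool 1 and 374 times in pool 2, a TPM ratio that rests on the low Gfap counts.

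The dominant transcript was the same in both pools. Of 26 members that reached 10 TPM in each pool, 14 had a single annotated transcript, and all 12 others had the same dominant transcript in both pools, with a median share of the gene's TPM of 96.0% in pool 1 and 98.6% in pool 2. How often other genes with several transcripts kept their dominant form between the pools was not counted, so this result does not set the members apart. The minor forms of Ttyh1 differed between the pools. Ttyh1-206 held 50.04% in pool 1 and 65.0% in pool 2. The form annotated as a target of nonsense-mediated decay, Ttyh1-201, held 47.2% in pool 1 (1442 counts) and 0% in pool 2, while the coding Ttyh1-203 held 1.48% and 34.2%. These forms are 2713 and 2495 bases long, and how far reads tell them apart was not tested.

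Retained-intron forms took a sizeable part of the TPM of Vim, Sparc and Bcan, and a smaller part of their counts. Vim-203, of 535 bases, held 40.8% and 39.3% of Vim's TPM but 12.6% and 11.9% of its counts. Sparc-203 held 18.6% and 11.4% of Sparc's TPM and 8.48% and 4.90% of its counts. For Bcan, a retained-intron form of 1473 bases (Bcan-206) was dominant at 88.0% and 88.4%, with 76.8% and 77.5% of counts, and the coding form Bcan-201 held the remaining TPM. Cldn10-201 held 84.1% and 86.5% of Cldn10 and Cldn10-203 held 15.9% and 13.5%. Gfap's few reads were divided between Gfap-202 (59.3% and 61.4%) and Gfap-201. The TPM of Vim, Sparc and Bcan thus depends on how reads were divided among such forms, while their ratios between pools rest on counts, which for Bcan gave 0.37 (0.18 to 0.56).

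**Figure D4:**
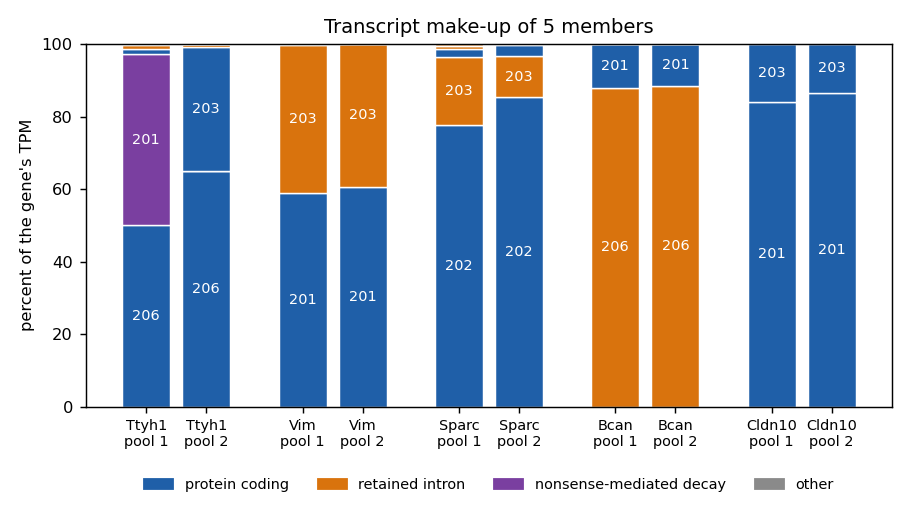
Percent of a gene's TPM (y axis) in each annotated transcript, stacked, for Ttyh1, Vim, Sparc, Bcan and Cldn10 in pool 1 and pool 2, coloured by annotated transcript type. The purple Ttyh1-201 holds 47.2% in pool 1 and 0% in pool 2, and the retained-intron part of Sparc is smaller in pool 2, while the transcript with the largest share is the same in both pools for each of the 5 genes.

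Exons of 9 members overlap exons of another gene on the opposite strand, and the cDNA kit named in the labels does not mark strand. The overlap was widest for Hopx, where 27.2% of exon bases are shared with the antisense gene Hopxos (62.4 and 78.5 counts). Timp4 shares 1.53% of its exon bases with Syn2, a neuronal gene with 702 and 941 counts. For the other overlapping genes that were in the tables, the partner had at most 38 counts in a pool.

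A wider list of 24 astroglial genes outside the 41 had 20 of 23 tested higher in pool 2 (all genes, 49.7%) and a median log2 ratio of 0.60, with 10 of 23 above 0 under spike-in totals. The list was drawn up with earlier results of these data known and is no independent evidence. Its 4 highest genes were Slc1a3, the glial glutamate transporter (TPM 1309.5 and 2298), the septin Septin4 (588 and 845), the lipid phosphatase Plpp3 (98.6 and 173) and the fatty acid carrier Fabp7 (95.7 and 163). At least 2-fold higher in pool 2 were 5 of 23 (all genes, 16.1%), named after their values were seen. They were the sodium pump subunit Atp1b2, the transcription factors Nfia and Etv5, the receptor Notch2 and the formin Daam2, with log2 ratios of 1.02 (Atp1b2) and above. Of these, Daam2 was under the detection level in both pools, at 0.24 and 0.63 TPM from 57 and 132 counts. Slc6a11, an astrocytic GABA transporter also named after its values were seen, was at 0.09 and 0.08 TPM from 15 and 11 counts.

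Markers of other cell types, taken as lists with more than 2 genes tested, had lower medians than these genes. Of 15 Purkinje genes 3 were higher in pool 2 (median log2 ratio -0.35). Microglial genes (4 of 11 tested higher, median -1.16, summed TPM 8.37 and 6.48) and endothelial and mural genes (4 of 12, median -0.70, 22.1 and 15.8) had the lowest medians of the lists drawn. Granule cell genes (8 of 12, median 0.19, 37.5 and 48.4) and oligodendrocyte genes (5 of 9, median 0.18, 38.8 and 55.2) were nearer the median of all genes. A TPM of 1 in both pools was reached by 2 of 12 microglial, 3 of 12 endothelial and mural, 6 of 12 granule cell, 3 of 10 oligodendrocyte and 4 of 10 interneuron genes. The medians of these lists thus rest in large part on low genes, and were not compared with the members at matched level. Interneuron genes (6 of 9, median 0.47) came closest to the members among them and had a summed TPM of 172 and 449, of which Npy, a neuropeptide, made up 135 and 411. The median was that of Lypd6, at 0.52 and 0.88 TPM. After Npy, the highest genes of the list by mean TPM were lower in pool 2. They were Prkcd (log2 ratio -0.53), Gad2 (-0.09) and Kit (-0.83). Lypd6, Gad2 and Kit were named after their values were seen. Oligodendrocyte precursor genes, of which 2 could be tested (median 0.56), summed to 1.67 and 2.00 TPM, with C1ql1 and Gpr17 at 0 counts in both pools, and choroid plexus and ependymal genes to 5.81 and 5.42, with Ccdc153 at 0. Red blood cell genes summed to 2453 TPM in pool 1 against 16.3 in pool 2. Under spike-in totals the genes above 0 were 0 of 15 Purkinje, 2 of 12 granule cell, 3 of 9 interneuron, 0 of 9 oligodendrocyte, 1 of 2 precursor, 4 of 11 microglial, 2 of 12 endothelial and mural, 1 of 4 choroid plexus and ependymal and 0 of 4 red blood cell genes. What part these lists have in the members' difference was not tested.

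**Figure D5:**
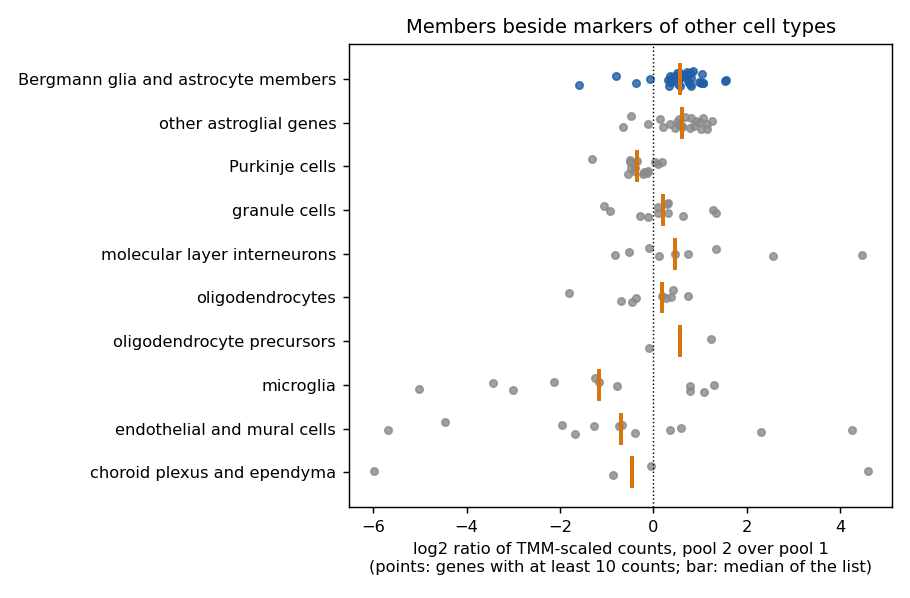
Log2 ratio of TMM-scaled counts, pool 2 over pool 1 (x axis), of genes with at least 10 counts in the members (blue) and in 9 marker lists (grey), with orange bars at the median of each. The members (0.57) and the other astroglial genes (0.60) lie to the right of the Purkinje genes (-0.35); red blood cell genes, with a median of -7.29, are not drawn. Under spike-in totals the members' median is -0.20.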

How the data were processed

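RNA of 2 pools of laser-captured Purkinje cells had been made into cDNA with a SMARTer Ultra Low kit, per the labels. The authors quantified each library separately on mm10 with GENCODE M4, per the text deposited with each sample. The aligner and quantifier were not given in the sources used here. The deposited tables hold, by their headers, expected counts, TPM, FPKM and, for transcripts, the percent of a gene's TPM. GENCODE M21, also on mm10, gave symbols, coordinates and transcript types (42462 of 43346 identifiers matched), and Septin4 was found under its older symbol. Promoters came from RefSeq on GRCm38.p6. Rows with numeric identifiers (0.000412% and 0.000194% of counts) and spike-ins were left out of gene totals.

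Counts were scaled by TMM in edgeR 4.0.16, with a pseudocount of 0.5 and genes with at least 10 counts over both pools. The ratio step was run on simulated counts with known changes in both directions. This checks the calculation only, not the choice of scaling or a shift of the size given here. With 1 group there is no test and no p-value is given. Intervals are exact binomial at 95%, and the labels mention no molecular identifiers. DESeq2 1.42.0 size factors, total counts, spike-in totals, TPM, FPKM, posterior means and other thresholds were alternatives. The rule for named genes was all 41 members, the 4 highest of the other astroglial genes, and of each other list the 2 highest and those at 0 counts; not all that it allows are printed, and names outside it are marked in the text. The rule for the members uses no measured value, but the members and lists were chosen with earlier results of these data known.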

Additional observations from a re-analysis of the deposited data

How the results depend on the processing

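The members' median level (5.08) kept within the SD between pools under every alternative run. It was 4.67 in pool 1 alone and 5.49 in pool 2 alone. The number detected in both pools ran from 26 at a TPM of at least 10 to 41 at a TPM of at least 0.1. The share of all genes was counted at a TPM of at least 1 only (16.4%). The median log2 ratio between pools, 0.57 under TMM, was 0.77 under total counts and 0.82 on the deposited TPM, and it turned to -0.20 under spike-in totals. The number of members at least 2-fold higher in pool 2, 6 under TMM (all genes, 16.1%), was 12 on TPM (4.9%) and 0 under spike-in totals (7.73%), and 20 passed 1.5-fold (25.9%). The 4.9% includes many low genes, whose ratios log2(TPM + 1) damps. The share of members higher in pool 2 moved with the scaling, as did that of all genes. It was 37 of 41 under TMM (all genes, 49.7%) and 13 with spike-in scaling (all genes, 20.8%). On TPM and total counts it was 38, and Hopx turned positive. The share of all genes was not counted there, but their medians were 0.13 and 0.19. The summed TPM of the members was 5.32% of that of the Purkinje list, 36.3% without its 3 highest genes and 16.02% by counts; the fold between pools was 1.77, 1.97 and 1.91. No direction of a member at least 2-fold apart changed under the 4 other scalings. For the count scalings this was fixed in advance, since each moves every gene alike and by less than 2-fold, so it is no check. No paired analysis was possible because there is 1 group of 2 pools. Gfap and Id3 had few counts, and their counting intervals under TMM include 0.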

Other observations

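Ratios between pools were also read against transcript length, using genes with at least 100 counts. Spearman's rho between length and log2 ratio was 0.16 over 40 members and 0.07 over 9525 genes, given as descriptions across genes of the same libraries. The members' median ratio was 0.50 for 13 members under 2000 bases, 0.79 for 16 from 2000 to 4000 bases and 0.48 for 11 of 4000 bases or more, while all genes of those lengths had -0.04, 0.05 and 0.06.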
